A study of Arabidopsis lyrata with 12 samples.

Results

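The densest H3K27me1 domains of Arabidopsis lyrata leaf chromatin are the 200 domains, of 17702 in the deposited H3K27me1 list, with the highest score per base pair. The score is the whole number that the authors listed for each domain, and it was divided here by the width of the domain. What the score counts is not given in the sources used here, so density below means deposited score per base pair and is read only against other domains of the same list. Young leaves of accession MN47 were profiled from plants grown on soil under 16-hour days at 22.5 °C. In such bulk tissue a mark in fewer cells and less of it per cell cannot be told apart. For each of H3K27me1 and 5-methylcytosine (5mC, by precipitation of methylated DNA), 2 libraries were made and 1 domain list was deposited, with no value per replicate. The same holds for the trimethylated forms H3K4me3 and H3K27me3, and 1 mRNA library gave a mean exon coverage for 24268 listed genes. All samples came from the same accession and tissue, so the study has no treated group. No replicate error could be attached to any value, the depth of every library is unknown, and no test was run, because domains of 1 list are not replicates.

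H3K27me1 is histone H3 carrying a single methyl group on lysine 27. In Arabidopsis thaliana it is placed by the methyltransferases ATXR5 and ATXR6, lies mainly on heterochromatin with methylated transposons, and is needed to keep those regions silent and to hold back extra rounds of their replication. 5mC marks transposons and other repeats, H3K27me3 marks genes held silent by Polycomb complexes, and H3K4me3 marks the start of transcribed genes. Long tandem repeats such as centromere satellites and ribosomal RNA genes are usually collapsed or broken into short pieces in an assembly. Reads from such DNA then gather on the few copies that the assembly holds. Neither a genome sequence nor any input signal was used here, so no domain's sequence is shown and the number of its copies was not tested.

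The 200 domains were chosen by their density, which is therefore given only as a description. It ran from 1.05 to 5.95 per base pair with a median of 1.73, against a median of 0.211 for the 17502 other domains, and 72 of the 200 lay above 10 times the median of the whole list (0.212). The 200 domains held 3.16% of the base pairs of the list and 20.8% of its summed score. The choice at 200 fell on a slope and not at a step. The last 3 domains inside had 1.057, 1.056 and 1.051 per base pair, and the next 3 outside had 1.049, 1.039 and 1.029. The densest domains were wider than the others, with 2100 bp as the median (middle 50% from 1200 to 5175 bp) against 1200 bp. Among the 200 themselves density and width were weakly and negatively related (Spearman -0.22 over 200 domains that share libraries). It was -0.04 over the 73 on the main scaffolds of the assembly and -0.33 over the 127 on its small, unplaced scaffolds. Over the 17502 other domains it was 0.15. Width is the divisor in density, and density chose the 200, so a negative value can arise by construction. No conclusion is drawn from it.

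The densest domains lay mostly on small scaffolds, the unplaced pieces of the assembly outside its 8 main scaffolds. Of the 200, 127 were there (63.5%, exact 95% interval 56.4 to 70.2%), against 1253 of the 17502 others (7.16%, interval 6.78 to 7.55%). Over all H3K27me1 domains the share was 7.80%, and small scaffolds made up 5.52% of the scaffold extent (each scaffold being measured up to the last position that a listed domain or gene reached). The intervals cover counting error only, and neighbouring domains are not independent. Along the ranking the share on small scaffolds was 68.0% for the 50 densest, 56.0% for ranks 151 to 200 and still 56.5% for ranks 201 to 400. It was 18% for ranks 401 to 800 and 6.19% beyond rank 1600.

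**Figure D1:**
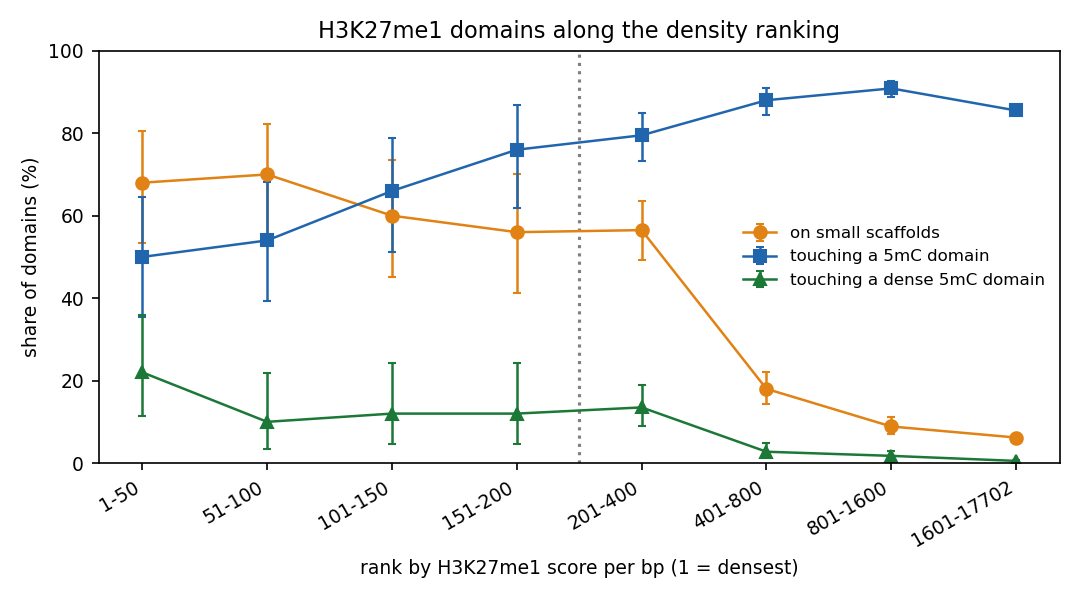
Share of H3K27me1 domains (%) by rank of density, with exact 95% intervals, for domains on small scaffolds, domains touching any 5mC domain and domains touching a dense 5mC domain. The dotted line marks rank 200. The share on small scaffolds is 68.0% for ranks 1 to 50 and 6.19% beyond rank 1600, while the share touching 5mC is 50% and 85.5% in these ranks.

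The 10 domains at the top of the ranking show how different the places were. The densest was a 1.8 kb domain at the far end of scaffold 18 (161701 to 163500), with 5.95 per base pair, 28.1 times the list median. It touched no 5mC domain. The next was a 0.9 kb domain at the far end of scaffold 1082 (2401 to 3300), a piece whose extent was 3.3 kb, with 5.49 per base pair and no 5mC domain either. The third was the first 7.2 kb of main scaffold 4 (1 to 7200), with 5.46 per base pair, and a 5mC domain covered 97.9% of it. That 5mC domain had 9.17 per base pair, 8.23 times the median of the 5mC list. The far end of a scaffold is here its last listed position, which a domain can itself set. The 3 highest densities stood at such a far end or at coordinate 1, and they carried either no 5mC domain or a very dense one.

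Scaffold 33 held the domains ranked 4 (83101 to 84300, 5.09 per base pair) and 6 (67501 to 68700, 5.03 per base pair), and only the higher of them touched 5mC, over 50% of its length. Rank 5 was the first 1.5 kb of scaffold 1076 (1 to 1500, 5.09 per base pair), which had no 5mC domain. Rank 7 was a 5.4 kb domain on scaffold 24 (2701 to 8100, 4.88 per base pair), where 5mC covered 83.3% at only 0.738 times the 5mC list median. The last 3 of these domains were on main scaffolds. They were a 5.1 kb domain on scaffold 6 (17175301 to 17180400, 4.74 per base pair), a 1.5 kb domain on scaffold 2 (8370601 to 8372100, 4.51 per base pair) and a 2.7 kb domain on scaffold 5 (7573201 to 7575900, 4.44 per base pair). The 5mC on these 3 was 6.77, 7.77 and 2.22 times the 5mC list median.

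Summed over their length, the highest scores belonged to other domains. The highest, 579041, was that of the 136.2 kb domain near the end of scaffold 3 (24306901 to 24443100), which alone made up 12.4% of the base pairs of the 200 domains and 25.2% of their score. The next were a 47.4 kb domain on scaffold 24 (24901 to 72300) with 70009, a 34.8 kb domain on scaffold 14 (238501 to 273300) with 64771, a 22.8 kb domain on scaffold 38 (31501 to 54300) with 41108 and a 10.2 kb domain on scaffold 51 (50701 to 60900) with 39505. All 4 lay on small scaffolds. The domains on scaffolds 24 and 38 reached the highest coordinate of their scaffold, as did that on scaffold 51.

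Many of the densest domains lay near each other. When domains less than 20 kb apart were joined, 134 of the 200 (67.0%, interval 60.0 to 73.5%) fell into 43 clusters of at least 2, and 66 stood alone. This share was not computed for other H3K27me1 domains, so it has no background. On scaffolds with an extent under 20 kb, any 2 of the 200 domains join by construction. In 86 cases 2 of them followed each other with no other H3K27me1 domain between, a median of 1500 bp apart. The clusters with the most members held 7 each, on scaffold 14 (198601 to 312000), scaffold 33 (10201 to 87300) and scaffold 35 (5401 to 85500). Dense domains made up 69.6, 45.5 and 53.6% of these intervals. Scaffold 24, with an extent of 72.3 kb, was covered to 98.3% by 4 of them and held no other H3K27me1 domain.

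H3K27me1 domains that stood beside the densest ones, within 20 kb, were themselves denser than usual, more so on small scaffolds. The 59 such neighbours on small scaffolds had a median of 0.520 per base pair, and 61.0% of them reached 2 times the list median. The 1113 that neighboured any other domain there had 0.214, and 9.97% reached it. On the main scaffolds the 69 other domains beside a densest one had a median of 0.238, and 29.0% reached 2 times the list median. Those beside other main-scaffold domains had 0.211, and 0.919% reached it. The densest domains themselves were left out of these neighbours, which caps the neighbour values below 1.05.

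The 127 domains on small scaffolds were spread over 47 of 622 such scaffolds. On 19 of the 47, every H3K27me1 domain was among the 200, and on 20 more than 50% of the extent lay under them. The 19 held 30 of the domains, and several had a single H3K27me1 domain, which puts them in this count by construction. Extent ends at the last listed position, so a lone domain can also fill it by construction. The 127 domains stood at coordinate 1 in 26 cases (20.5%, interval 13.8 to 28.5%), against 74 of the 1253 others on small scaffolds (5.91%, interval 4.67 to 7.36%). Either end was reached by 54 (42.5%), against 251 of the others (20.0%). The far end is the highest coordinate in any file, which the domain itself can set, so only the count at coordinate 1 is free of this. The median extent was 6.90 kb for the 47 scaffolds and 7.80 kb for the 301 small scaffolds that had H3K27me1 but none of the 200.

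Those 47 scaffolds held few genes. Together they came to 3.27 Mb with 4 listed genes, on 2 of the scaffolds, or 1.22 genes per Mb. The 301 small scaffolds with other H3K27me1 had 54.3 genes per Mb, and the main scaffolds 122 per Mb. H3K27me1 covered 69.8% of the 47 scaffolds, against 34.9% of the 301, and H3K27me3 covered 3.45% against 10.9%. H3K4me3 covered 0.0733% of the 47 and 3.24% of the 301. Genes outside the mRNA table were not counted.

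On the main scaffolds the densest domains gathered beside the long empty stretches, a comparison added after the data were seen. The longest run of each main scaffold that held no domain of any list and no listed gene measured 1.65 to 2.85 Mb. Of the 73 densest domains on main scaffolds, 44 lay within 1 Mb of it (60.3%, interval 48.1 to 71.5%), against 2854 of the 16249 others (17.6%, interval 17.0 to 18.2%). All 44 lay within 500 kb, against 1440 of the others (8.86%). Scaffold 5 gave 21 of the 44, and without that scaffold the share was 50%. The count was 8 of 14 on scaffold 4, 7 of 9 on scaffold 8, 3 of 5 on scaffold 6 and 3 of 7 on scaffold 7. It was 1 of 2 on scaffold 3. Scaffold 2 went the other way, with 1 of 9, against 22.8% of its other domains. The nearest H3K27me1 domain was one of the 200 at 6 of the 16 edges of these stretches, on 5 scaffolds, and each of the 6 bordered the run directly. A run ends by definition at a listed domain or gene, and 12 of the 16 edges lay directly at an H3K27me1 domain of any density. Direct bordering is therefore not particular to the 200. The sequence inside these runs was not analysed here.

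**Figure D2:**
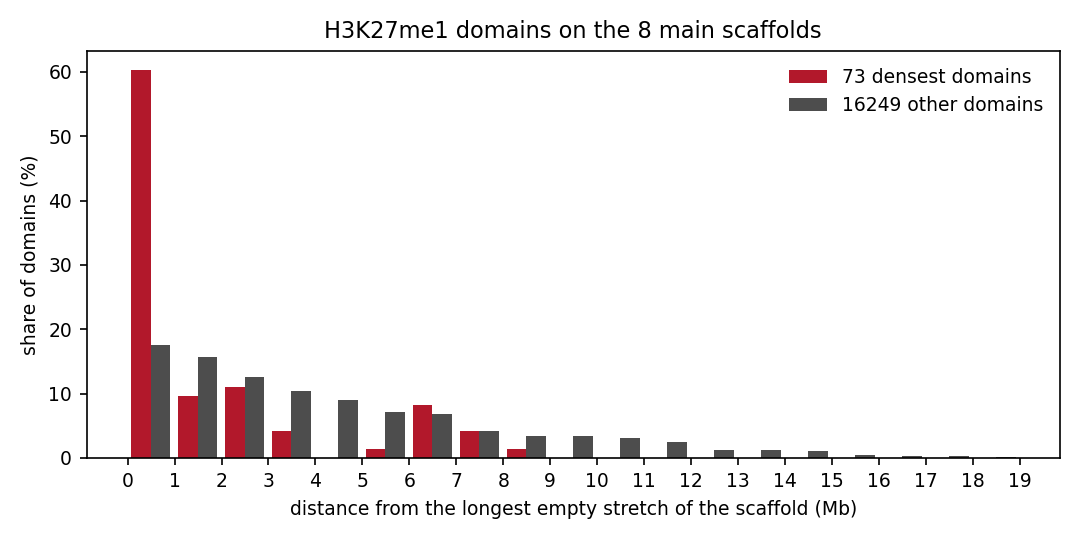
Share of H3K27me1 domains on the 8 main scaffolds (%, bars) by distance (Mb) from the longest empty stretch of the same scaffold. The first bar pair, up to 1 Mb, is 60.3% for the 73 densest domains and 17.6% for the 16249 others.

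The main scaffolds differed in how many they held. Scaffold 5 had 27 of the 73, scaffold 4 had 14, scaffolds 2 and 8 had 9 each, scaffold 7 had 7, scaffold 6 had 5 and scaffold 3 had 2. Scaffold 1 had 0, although it held 2944 other H3K27me1 domains. Its domain ranked 203 (18586501 to 18588300, 1.03 per base pair) missed the limit narrowly. Few of the densest domains on main scaffolds were at scaffold ends. Of the 73, 3 lay within 100 kb of one (4.11%, interval 0.856 to 11.5%), against 116 of the 16249 others (0.714%, interval 0.590 to 0.856%). These 3 were the first 7.2 kb of scaffold 4, the 136.2 kb domain of scaffold 3, 21.3 kb from the highest coordinate, and a 0.6 kb domain on scaffold 7 (24618901 to 24619500).

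5mC was found at fewer of the densest domains than at other H3K27me1 domains, and the shares differed between the 2 kinds of scaffold. Over all 17702 domains 85.5% touched a 5mC domain by at least 1 bp. Among the 200, 123 did (61.5%, interval 54.4 to 68.3%), against 15007 of the others (85.7%, interval 85.2 to 86.3%). On the main scaffolds the shares were 65 of 73 (89.0%, interval 79.5 to 95.1%) and 88.0% of the others, a difference within the counting error. On small scaffolds they were 58 of 127 (45.7%, interval 36.8 to 54.7%) and 55.9% of the others (interval 53.1 to 58.7%). In both sets 5mC was rarer on small scaffolds, where most of the 200 lay. The overall shares of 61.5 and 85.7% therefore compare unlike mixes of scaffolds. Of the 127, 29 stood on scaffolds with no 5mC domain at all (22.8%, interval 15.9 to 31.1%), close to the 18.7% of the others there. On small scaffolds with an extent under 20 kb, 5 of 40 touched 5mC (12.5%, interval 4.19 to 26.8%), against 29.4% of the 537 others. On those of 20 kb or more, 53 of 87 did (60.9%, interval 49.9 to 71.2%), against 75.8% of the 716 others.

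The gap in 5mC also changed with the width of the domain. On main scaffolds the densest touched 5mC in 85.7% of cases up to 900 bp, against 80.6% of the others, and in 90.9% from 1200 to 2100 bp, against 90.5%. From 2400 to 5100 bp it was 13 of 17 (76.5%, interval 50.1 to 93.2%), against 98.7% of the others, and over 5100 bp every domain of both sets touched 5mC. On small scaffolds the densest touched 5mC less often in each class up to 5100 bp. Up to 900 bp it was 4 of 18 (22.2%, interval 6.41 to 47.6%), against 46.8% of the others, which lies within the interval. From 1200 to 2100 bp it was 15 of 48 (31.3%, interval 18.7 to 46.3%), against 52.8%. From 2400 to 5100 bp the shares were 48.4 and 67.7%, and over 5100 bp they were 80.0 and 79.9%.

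Where 5mC was present it was denser. The 5mC density on the 123 domains, weighted by overlap, had a median of 2.04 per base pair (quartiles 1.43 and 2.93), against 1.18 (quartiles 0.990 and 1.43) on the others, a ratio of 1.73. The ratio was 1.84 on the main scaffolds and 1.48 on the small ones. A 5mC domain counted as dense from 3 times the median of its list, or 3.35 per base pair, and 1.24% of all 33531 5mC domains were that dense. Such a domain touched 28 of the 200 densest H3K27me1 domains (14%, interval 9.51 to 19.6%), against 0.777% of the others and 0.926% of all. On the main scaffolds it was 18 of 73 (24.7%, interval 15.3 to 36.1%) against 0.603%, and on small scaffolds 10 of 127 (7.87%, interval 3.84 to 14%) against 3.03%. A wide domain can touch more 5mC domains, and these shares were not split by width. The 18 had a median width of 5400 bp, against 2100 bp for the 47 main-scaffold domains whose 5mC stayed below 3 times the median.

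Among the densest domains the 2 densities were positively related on main scaffolds and weakly negatively on small ones. The Spearman correlation of H3K27me1 and 5mC density was 0.63 over the 65 main-scaffold domains with 5mC, 0.57 without scaffold 4 and 0.71 without scaffold 5. Over the 58 on small scaffolds it was -0.29, and over the 53 on small scaffolds of 20 kb or more it was -0.22. Scaffold 11 alone gave 15 of the 58. Over the other H3K27me1 domains with 5mC the correlation was 0.16 on main scaffolds (14306 domains) and 0.20 on small ones (701 domains). The contrast between the kinds of scaffold was thus seen only among domains chosen for 1 of the 2 densities. These values describe domains that share libraries and often a neighbourhood. Of the 21 main-scaffold domains above 10 times the H3K27me1 list median, 20 touched 5mC and 12 touched dense 5mC. Of the 51 on small scaffolds past the same limit, 15 touched 5mC.

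**Figure D3:**
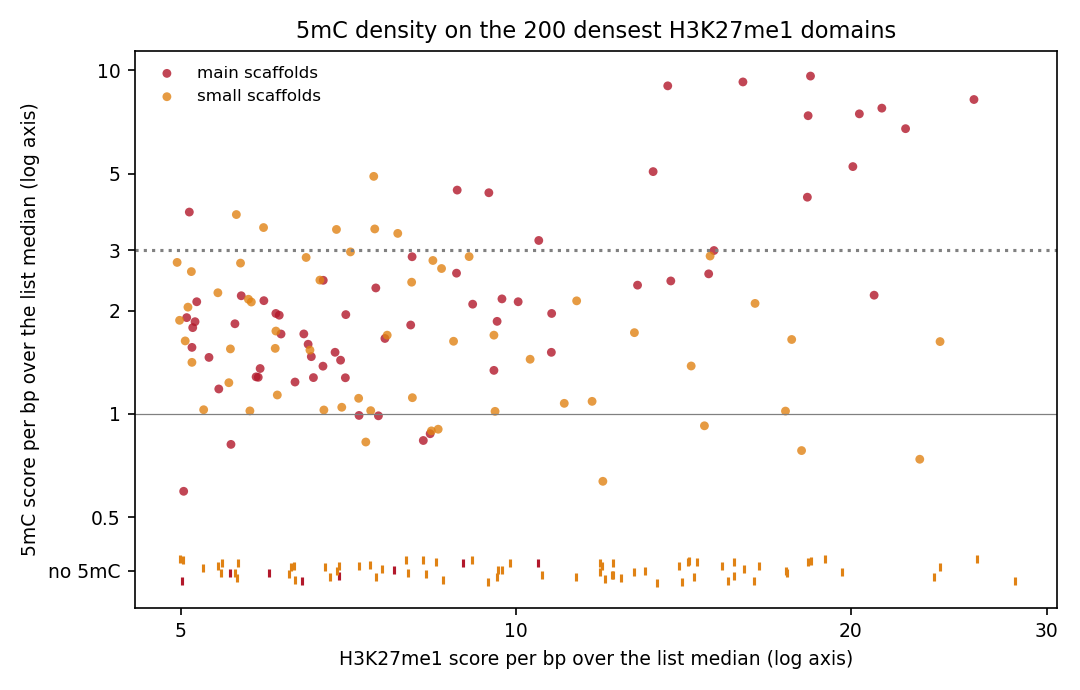
H3K27me1 density (x, log axis) against 5mC density (y, log axis) of the 200 densest H3K27me1 domains, each over the median of its own list. Points are domains on main or small scaffolds, ticks along the bottom are the 77 domains without 5mC, and the dotted line is 3 times the 5mC median. The highest 5mC values, up to 9.63, belong to main-scaffold domains, and most domains without 5mC are on small scaffolds.

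The 18 main-scaffold domains with dense 5mC lay on 6 scaffolds, some close together and some alone. Domains outside any cluster on scaffold 4 (1 to 7200), scaffold 2 (8370601 to 8372100) and scaffold 5 (12882301 to 12883200) had 8.23, 7.77 and 7.47 times the 5mC list median. A cluster of 3 domains within 7.5 kb on scaffold 4 (4457401 to 4464900) had 5mC at 9.26, 9.02 and 9.63 times the 5mC list median, and H3K27me1 at 16.0, 13.7 and 18.4 times its own. Earlier on the same scaffold, a 0.9 kb domain (4428001 to 4428900) had 7.38 and 18.3 times. A 3-domain cluster on scaffold 5 (1074301 to 1105200) had 5mC at 4.40, 3.87 and 4.48 times and H3K27me1 at 9.46, 5.09 and 8.86 times. The pair of ratios thus differed between places. On scaffold 6 (17109301 to 17142600) and in the domain that follows at 17175301, 5mC stood at 1.96, 5.07 and 6.77 times and H3K27me1 at 6.09, 13.3 and 22.4 times. Of the 18 main-scaffold domains with dense 5mC, 13 lay more than 1 Mb from the empty stretch. The median over those beyond 1 Mb was 3.03 times the 5mC list median (24 domains with 5mC), against 1.81 within 1 Mb (41 domains with 5mC).

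Small scaffolds differed among themselves as well. On scaffold 11 all 15 densest domains touched 5mC, with a median of 2.65 times the 5mC list median. On scaffold 14, 8 of 15 did, at 1.54 times, and on scaffold 21 it was 0 of 7. On scaffold 24 all 4 touched 5mC, at 0.637 to 1.12 times the median, so that H3K27me1 up to 23.1 times its list median lay with ordinary 5mC.

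Beside the densest domains on main scaffolds, 5mC domains that did not touch them were at the usual density. The 94 5mC domains touching them had a median of 2.06 per base pair. The 95 that lay within 5 kb without touching had 1.11, and the 233 at 5 to 20 kb had 1.07, against 1.11 over all 5mC domains on main scaffolds. On small scaffolds the 133 touching had 1.37, the 51 within 5 kb 1.40 and the 90 at 5 to 20 kb 1.34, against 1.13 over all there. In the first kb outside the edge, 5mC covered 17.9% of base pairs for the 73 densest main-scaffold domains and 49.1% for the others. Between 9 and 10 kb it covered 35.4 and 33.9%. The base pairs of empty stretches count as uncovered at the 6 domains that border them.

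**Figure D4:**
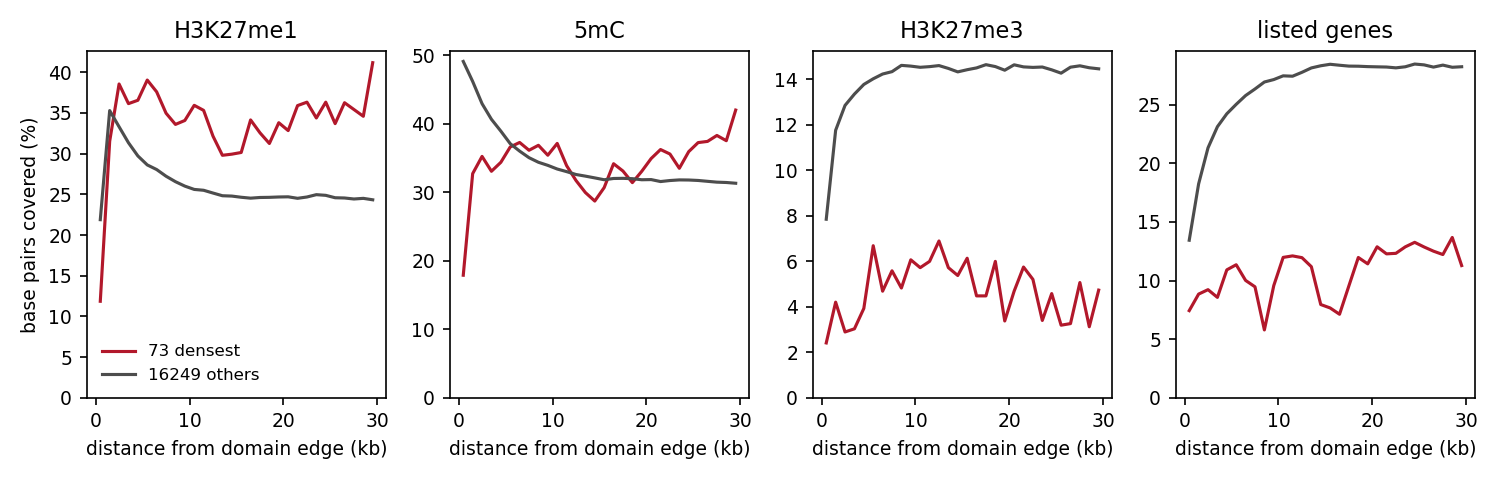
Share of base pairs (%) covered by H3K27me1 domains, 5mC domains, H3K27me3 domains and listed genes in 1-kb bins outside the domain edge (kb, both sides pooled), for the 73 densest and 16249 other H3K27me1 domains on main scaffolds. In the first kb 5mC covers 17.9% beside the densest and 49.1% beside the others, and listed genes cover 7.43 and 13.4%.

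The other 2 marks were rare on the densest domains. H3K27me3 touched 9 of 200 (4.50%, interval 2.08 to 8.37%), against 24.5% of the others and 24.3% of all. All 9 were ranked below the first 100. Where it was present its density had a median of 1.96 per base pair (range 0.541 to 2.47, 9 domains). The median was 0.618 where it touched other H3K27me1 domains and 0.748 over the whole H3K27me3 list. Of the 9, 4 lay on scaffolds 11 and 13, with 1.96 to 2.47 per base pair. The others had 0.541, 0.585, 0.795, 1.09 and 2.30, so the higher median rested largely on those scaffolds. H3K4me3 touched 1 of 200 (0.50%, interval 0.0127 to 2.75%), against 4.06% of the others and 4.02% of all. That domain, on scaffold 5 (12976501 to 12977100), also overlapped a listed gene and had no 5mC.

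Few of the densest domains carried listed genes, but most of those found there had high mRNA coverage. A gene was counted on a domain if they shared 200 bp or more, or if the whole gene was shorter and lay inside. By this rule 6 of the 200 domains touched a listed gene (3.0%, interval 1.11 to 6.42%), against 13.9% of the others and 13.7% of all, and all 6 were on main scaffolds. There it was 6 of 73 (8.22%, interval 3.08 to 17.0%), against 14.5% of the others, which lies within the interval. On small scaffolds it was 0 of 127 (interval up to 2.86%), against 5.67% of the others. The median distance from a main-scaffold domain to the nearest listed gene was 37.2 kb for the densest and 3.81 kb for the others. The 6 domains carried 17 genes with a median coverage of 93.0 (interval 71.8 to 106, by order statistics). That interval treats the genes as independent, although 12 of them lay in 1 domain. The 1918 genes on other H3K27me1 domains had a median of 1.79, and all listed genes 7.02. A coverage of at least 50 was listed for 14 of the 17, against 1.41% of genes on other H3K27me1 domains and 7.10% of all listed genes.

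These genes came from few places, so the median rests on 1 domain. The 136.2 kb domain on scaffold 3 holds 12 of the 17 genes, all wholly inside it. Without that domain the remaining 5 genes had a median of 31.1, and their values were 139.9, 126, 31.1, 20.7 and 4.56. The 2 highest of all 17 were AL5G12040 (scaffold 5, 1085553 to 1090021) and AL5G12050 (scaffold 5, 1103343 to 1108348), at 139.9 and 126. They overlap 2 domains of the cluster at 1074301 to 1105200, with 30.2 and 37.1% of their spans inside. In that cluster 5mC stood at 3.87 to 4.48 times its list median. In the scaffold 3 domain it stood at 5.25 times over the 54.7% of the domain that 5mC covered. Whether the genes themselves lay under 5mC was not examined. The 2 lowest were AL5G25240 (scaffold 5, 12976412 to 12978446) at 20.7, with 29.5% of its span inside, and AL5G25110 (scaffold 5, 12882705 to 12886047) at 4.56, with 14.8% inside. The domain over AL5G25110 ranked 11, with H3K27me1 at 20.4 and 5mC at 7.47 times the list medians, so high density in both lists did not always go with high coverage. Coverage comes from 1 library with no replicate check. No source used here gives these identifiers a name, so the functions of these genes are not given, and whether reads from other copies add to their coverage was not tested.

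**Figure D5:**
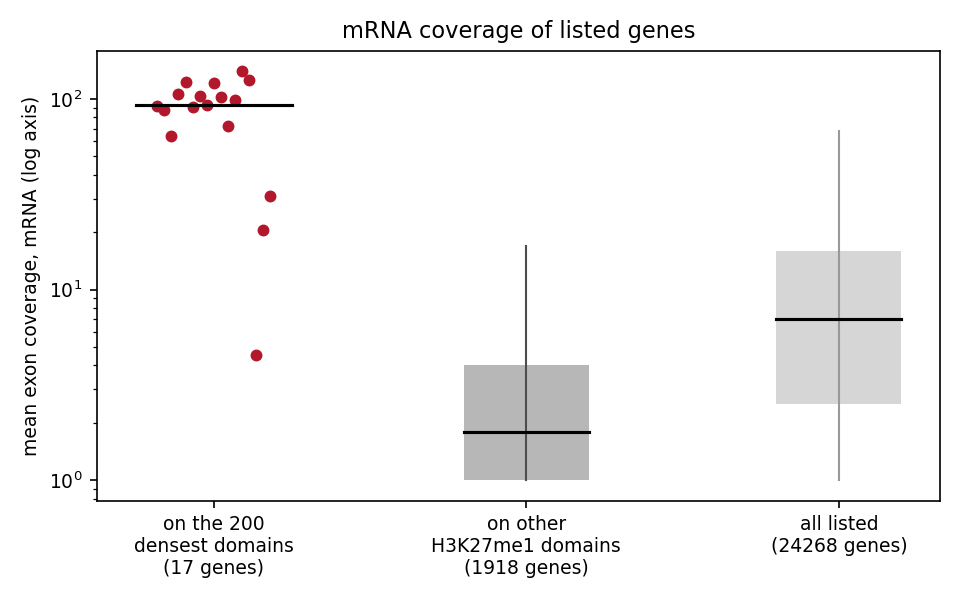
Mean exon coverage in the mRNA library (log axis) of the 17 listed genes on the 200 densest H3K27me1 domains (points, line at the median of 93.0), of the 1918 genes on other H3K27me1 domains and of all 24268 listed genes. Boxes span the quartiles, with the median as a line and whiskers at the 5th and 95th percentiles, and the medians are 1.79 and 7.02.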

How the data were processed

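Domain lists for H3K27me1, 5mC, H3K27me3 and H3K4me3 were used as the authors deposited them, each domain having a position and a whole-number score. Per the submitters' processing notes, Bowtie and SICER were used, without versions. The sources used here do not state settings, genome build, pooling of replicates or the meaning of the score. H3K27me1 domains were built from 300 bp steps and 5mC domains from 150 bp steps. The authors also deposited a coverage signal per gene for 1 mRNA library, with no stated normalization. Its lowest value was 1, at which 1998 genes were listed. Depth is unknown for all libraries.

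Density is score divided by width, ranked with ties by scaffold and start. Coordinates are printed counting from 1. The regions named are the 10 densest, the 5 with the highest scores, the 3 largest clusters and those at the limit of 200; other regions were chosen after their values were seen. Of the listed genes on the domains, only the 2 highest and 2 lowest are named. The RefSeq gene table of assembly v.1.0 matched 0 of 24268 identifiers. Shares have exact (Clopper-Pearson) 95% intervals. The overlap, ranking and cluster steps were tested on simulated domains. Python 3.11.15, pandas 2.3.3 and SciPy 1.17.1 were used. The members, lists and comparisons were chosen with earlier results of these data known.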

Additional observations from a re-analysis of the deposited data

How the results depend on the processing

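Of 73 values recomputed under alternatives, 48 stayed within the counting interval of the reported value, or within 1.5 times of it for a count. The share touching 5mC was 52.0% for the top 100 and 70.5% for the top 400 domains, and 50% when at least 50% of the domain had to be covered. It was 73.8% without scaffolds under 20 kb, against 87.5% of the others. Ranked on the main scaffolds only, the 200 densest touched 5mC in 91.5% of cases, against 88.0% of the others there, which turns the direction. The 5mC density ratio was 2.01 for the top 100, 1.54 on the main scaffolds only and 2.16 when pooled over base pairs. The share touching dense 5mC was 30.5% from 2 times and 5.50% from 5 times the median (others 4.29 and 0.103%). The share on small scaffolds was 54.4% without scaffolds under 20 kb. On the main scaffolds only, 10.5% touched a listed gene, against 14.5% of the others, with 34 genes and a median coverage of 25.3. The top 400 gave 28 genes with a median of 51.2, and leaving out the domain with the highest score gave 5 genes with 31.1. The top 100 and 400 formed 20 and 74 clusters holding 51 and 76.3% of domains. The share in clusters was 58.0% on the main scaffolds only, and 54.0 and 75% with gaps of 5 and 50 kb. The alternatives without scaffold 4, without scaffold 5, without scaffolds under 20 kb and with other distances from the empty stretches were chosen after seeing the data. No paired analysis was possible because the deposited lists carry no value per replicate, and leaving out a replicate was impossible for the same reason. Depth is unknown, so a missing 5mC domain shows only that none was listed.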

Other observations

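The densest 5mC domains met the densest H3K27me1 domains more often than 5mC domains in general did, though most lay elsewhere. Of the 200 densest 5mC domains (at least 4.21 per base pair), 26 (13%) touched one of the 200 densest H3K27me1 domains, against 227 of all 33531 5mC domains (0.677%). The 26 reached 20 of the 200 densest H3K27me1 domains (10%). Any H3K27me1 domain was touched by 78 of the 200 densest 5mC domains (39.0%), against 45.0% of all, and 41 of them (20.5%) were on small scaffolds, against 6.58% of all. The 3 densest 5mC domains stood at coordinate 1 or at the last listed position of main scaffolds. They had 35.7 per base pair on scaffold 4 (23327551 to 23328300), 25.6 on scaffold 2 (1 to 300) and 23.4 on scaffold 8 (22950601 to 22951200). The first 2 touched no H3K27me1 domain, and the third touched one outside the 200. At the other end of scaffold 4, the first 7.2 kb were dense in both lists.

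At the edges of the empty stretches, the 16 nearest H3K27me1 domains had a median rank of 251 among 17702, and 10 of them were ranked within the first 400. On scaffolds 1, 3, 4 and 7, edge domains ranked 211 to 258 had 0.868, 0.993, 0.856 and 0.851 per base pair. The edge domains outside the first 400 were ranked 920 to 16877, with 0.328 to 0.169 per base pair, against a list median of 0.212. They lay at 1 edge each of scaffolds 1, 2, 3, 5, 6 and 7, so most stretches had a dense domain at 1 edge only.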
